A study of Mus musculus with 2 samples.

Results

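The genes described here are 38 genes of the glutathione, thioredoxin and Nrf2 antioxidant system, in monocytes of the mouse spleen. They were chosen by name, as the array features whose gene name equals a member of the list, out of 24786 gene names on the array that a RefSeq table holds. All 38 had at least 1 probe, for 66 probes in all, and 36 were well above background on both arrays. The cells came from mice of the icr strain (ICR, an outbred stock), which had either a sham operation or a 5/6 nephrectomy (5/6 nephrectomized, here 5/6Nx), a removal of most kidney tissue that is used as a model of chronic kidney disease. They were taken 8 weeks after the operation by flow cytometry for CD11b and Ly6c, the usual surface antigens of inflammatory monocytes,, and RNA of each group was hybridised to 1 one-colour Agilent array. The genotype, age and sex of the mice, any drug treatment, the gates of the sort and the number of mice behind each RNA sample are not given in the sources used here. Both arrays lay on the same slide. Since each group has a single array, no spread between replicates and no p-value can be given, and every difference below is between these arrays, not between the conditions.

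Nrf2, the product of Nfe2l2, is a transcription factor that the adaptor Keap1 marks for degradation in resting cells. Oxidants and electrophiles modify Keap1, Nrf2 then accumulates, pairs with small Maf proteins and binds antioxidant response elements in genes that make and use glutathione, reduce thioredoxin and supply NADPH. In monocytes and macrophages, which release oxidants against microbes, these enzymes limit damage to the cell itself, and Nrf2 is regulated largely through the stability of its protein, which an mRNA level does not show.

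Most of these genes had a lower signal on the 5/6Nx array. Of the 36 measured members, 24 (66.7%) were at least 2-fold lower and 3 (8.33%) at least 2-fold higher, whereas of all 15687 genes above background on both arrays 11% were lower by that much and 12.3% higher. The members were chosen with earlier results of these data known. Their contrast with all genes is therefore not independent of those results. The median difference, 5/6Nx minus sham in log2 units, was -1.43 over the members and -0.12 over all measured genes. Lower by 4-fold or more were 11 members, a share of 30.6% against 2.71% of all genes, and higher by as much was 1, Gstt1, against 4.56% of all genes. The members with a lower signal included all 4 genes of cystine import and glutathione synthesis, 7 of 10 glutathione transferases, and catalase. The genes of Nrf2 itself and of Keap1 were not among them, and the glutathione transferase Gstt1 lay far on the other side, 61.2-fold higher on the 5/6Nx array from a dim sham signal, or 4.04 rather than 5.94 in log2 units with the normexp background correction. In a bulk sample fewer cells of a type and less RNA per cell cannot be told apart.

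**Figure D1:**
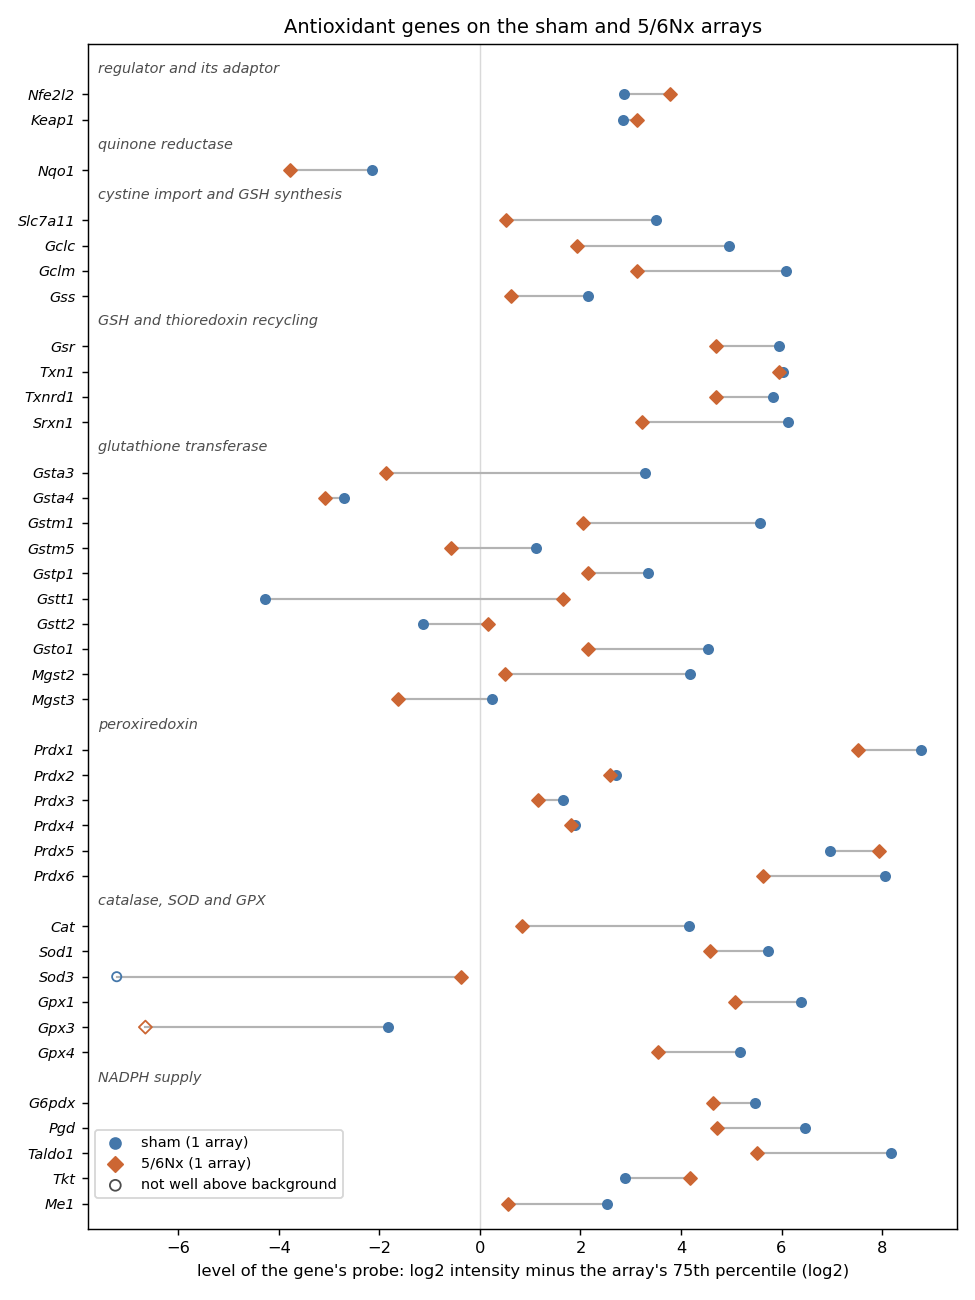
Level of each of the 38 genes on the sham array (circles) and the 5/6Nx array (diamonds), 1 array each, as log2 intensity minus the 75th percentile of the array, grouped by role. Levels compare the arrays within a gene, not genes with each other. In most rows the diamond lies to the left of the circle, while Gstt1, Gstt2, Tkt, Prdx5, Nfe2l2, Keap1 and Sod3 run the other way, and open symbols mark Sod3 on the sham array and Gpx3 on the 5/6Nx array as not well above background.

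Among all measured genes ranked from the most negative difference, Gsta3 stood at place 21, Mgst2 at 92, Gstm1 at 108, Cat at 135 and Gclc at 163 of 15687. At the other end Gstt1 stood at place 77 from the top. Members were mostly bright, with 31 of the 36 above the median signal of measured genes. Of these 31 members 22 were lower by 2-fold or more and 1 higher, beside 11.6% and 9.03% of the 7843 genes that bright.

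**Figure D2:**
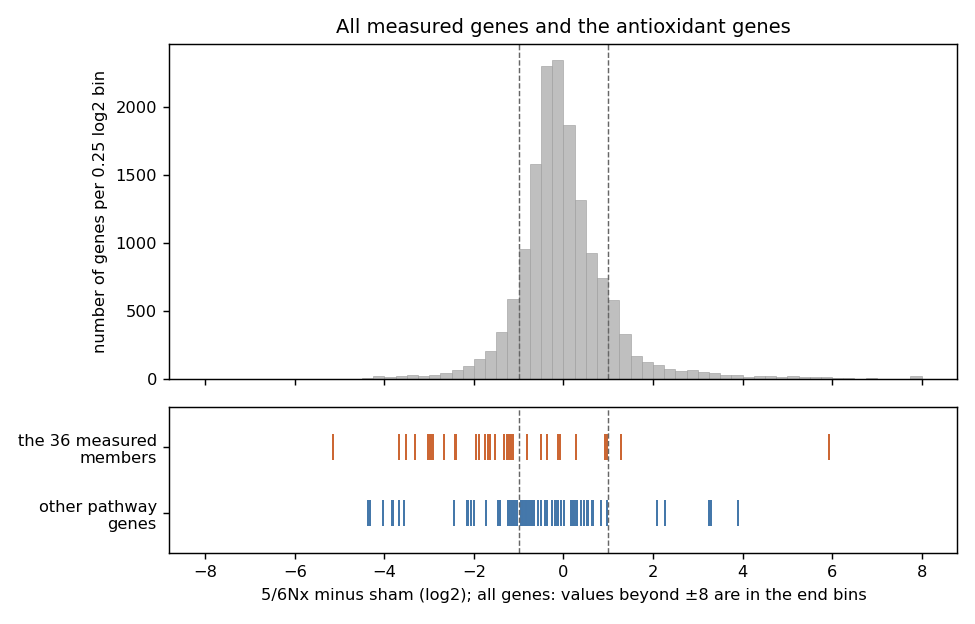
Number of genes per 0.25 log2 bin of 5/6Nx minus sham for all 15687 measured genes (bars, top), with a tick for each of the 36 measured members and each of 76 other measured pathway genes (bottom). Dashed lines mark 2-fold. The bars peak near 0, and most ticks of the members lie to the left of the lower 2-fold line.

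Promoter sequence was available for 32 of the 38 members in a RefSeq table of the build GRCm38.p6, which gives 250 bases before and 50 bases after each annotated start. Gclc, Gsr, Gsta4, Gstt2, Prdx6 and Sod3 had no entry. The core of the antioxidant response element, TGACNNNGC with any base at N, was searched on both strands, with no other motif. It was found in 11 of the 32 members (34.4%), and in 3781 of 27025 genes of the table (14%), or 12.4% of all 32851 windows. The 6 members with a match and the largest differences are shown to let the position and the letters of the match be seen, read 5′ to 3′ on the strand of the gene, with the match in capitals. Gsta3, Gclm and Gstm5 are shown over the 250 bases before the start, and Srxn1, Me1 and Pgd, where the match lies at or just after the start, over 30 bases.
Gsta3 (chr1:21240335-21240584, plus strand): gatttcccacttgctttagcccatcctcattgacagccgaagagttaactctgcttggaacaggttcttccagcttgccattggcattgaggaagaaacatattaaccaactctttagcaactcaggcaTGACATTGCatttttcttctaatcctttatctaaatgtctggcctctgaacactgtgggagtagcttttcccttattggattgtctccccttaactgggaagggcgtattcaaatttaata
Gclm (chr3:122245307-122245556, plus strand): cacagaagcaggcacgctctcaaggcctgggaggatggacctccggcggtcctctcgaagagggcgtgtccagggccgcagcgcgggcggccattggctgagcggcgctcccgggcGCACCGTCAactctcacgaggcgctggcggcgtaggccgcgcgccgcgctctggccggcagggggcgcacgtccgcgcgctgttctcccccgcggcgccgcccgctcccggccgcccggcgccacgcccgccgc
Srxn1 (chr2:152105542-152105571, plus strand): gcagtgggcaGCTAGGTCAgagtgagacac
Me1 (chr9:86695901-86695930, minus strand): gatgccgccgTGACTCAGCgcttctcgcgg
Pgd (chr4:149166060-149166089, minus strand): atttcagagcTGACATTGCactgatcggac
Gstm5 (chr3:107895604-107895853, plus strand): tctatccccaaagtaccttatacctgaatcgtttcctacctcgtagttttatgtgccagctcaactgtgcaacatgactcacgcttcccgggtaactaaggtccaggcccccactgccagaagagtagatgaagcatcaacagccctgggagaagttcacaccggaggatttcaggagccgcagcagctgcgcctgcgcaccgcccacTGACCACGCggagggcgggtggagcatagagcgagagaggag

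In Gsta3 the match began at position -121 from the start, in Gstm5 at -42, in Me1 at -6 and in Pgd at 4, all on the strand of the gene. In Gclm it began at -134 and in Srxn1 at 29, both on the opposite strand, so that the capitals show the reverse complement. The other members with a match were Prdx1, Sod1, Txnrd1, G6pdx and Nfe2l2. Of the 11 measured members with a match, 9 were at least 2-fold lower and none higher, with a median of -1.69. Of 20 measured members with a window and no match, 12 were at least 2-fold lower and 2 higher, with a median of -1.43. Of all genes 11% were lower and 12.3% higher, with a median of -0.12. In groups this small the counts of higher members were near that share. Whether members with and without a match differ was not tested. Both groups of members thus had medians below that of all genes. A match or its lack in this window says nothing of whether Nrf2 binds there or elsewhere.

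The gene of the regulator itself was not lower. Nfe2l2 (probe on chromosome 2, 75513771 to 75513830, mm9) had an intensity of 3231 in the sham cells and 7557 in the 5/6Nx cells, a difference of 0.92, and its other probe differed by 1.25. Both probes were thus higher on the 5/6Nx array, with the brighter just short of 2-fold; the gene passed it with spike-in scaling, at 1.35, and with the mean over probes, at 1.08. Keap1 (chromosome 9, 21035292 to 21035732) read 3173 and 4775, a difference of 0.28, which stayed under 2-fold in every scaling tried. Nqo1, the quinone reductase that is a standard readout of Nrf2 activity, read 99.99 in the sham cells and 39.6 in the 5/6Nx cells, a difference of -1.64. Its signal was dim on both arrays, and with the normexp background correction the difference was -0.94 and no longer 2-fold.

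The genes of cystine import and glutathione synthesis were all lower by 2-fold or more, 4 of 4 beside 11% of all genes. Their median was -2.97. Slc7a11, the cystine antiporter, read 5013 in the sham cells and 781 in the 5/6Nx cells, a difference of -2.99, and its 3 measured probes ran from -2.99 to -2.20. Gclc (chromosome 9, 77641296 to 77641355, mm9), the catalytic subunit of the rate-limiting enzyme of glutathione synthesis, read 13741 and 2094, a difference of -3.02. Gclm (chromosome 3, 121967737 to 121967796), the modifier subunit of the same enzyme, read 29938 and 4769, a difference of -2.96. The antiporter and both subunits of the ligase therefore differed by nearly the same amount, about 8-fold, between the arrays. Gss, the synthetase that adds glycine in the last step, differed less, with 1960 and 837 for a difference of -1.54 and its other probe at -1.52.

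Enzymes that restore reduced glutathione and thioredoxin were lower by smaller amounts, with 3 of 4 past 2-fold, beside 11% of all genes. Gsr, the glutathione reductase, read 27174 in the sham cells and 14098 in the 5/6Nx cells, a difference of -1.26. Txnrd1, the cytosolic thioredoxin reductase, read 25252 and 14284, a difference of -1.13, and its other probe differed by -1.42. Txn1, thioredoxin itself, read 28801 and 33967, a difference of -0.07, or 0.36 with spike-in scaling. Srxn1, the sulfiredoxin that repairs overoxidised peroxiredoxins, stood apart from the reductases, at 31126 and 5115 and a difference of -2.91. Its signal was thus 7.54-fold lower on the 5/6Nx array, against 2.39-fold for Gsr and 2.19-fold for Txnrd1.

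The glutathione transferases, which attach glutathione to electrophiles, had the lowest and the highest difference among the members measured on both arrays. By 2-fold or more 7 of 10 genes were lower and 2 higher, beside 11% and 12.3% of all genes. The median was -1.79. Gsta3 (chromosome 1, 21255189 to 21255248, mm9), an alpha-class transferase, read 4305 in the sham cells and 149.5 in the 5/6Nx cells, a difference of -5.16. Its other measured probe read 2118 and 85.6, a difference of -4.94, so that both put the gene at more than 30-fold lower. Mgst2, a microsomal transferase that also makes leukotriene C, read 8010 and 777, a difference of -3.67. Mgst3, its relative, read 523 and 176, a difference of -1.88.

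Within the mu class, Gstm1 read 20925 in the sham cells and 2255 in the 5/6Nx cells, a difference of -3.52. The files place this probe on chromosome 5 (117082490 to 117082549, mm9), and the other Gstm1 probe, on chromosome 3 (107815595 to 107815654), differed by -3.81. Gstm5 read 961 and 368, a difference of -1.69, and -1.98 on its other probe. Mu-class transcripts are similar in sequence, and no Gstm1 or Gstm5 probe shared a run of 25 bases with a probe of another gene name; whether a probe read a related transcript was not tested. The omega-class Gsto1 read 10288 and 2419, a difference of -2.40, with its second probe at -2.45, and the pi-class Gstp1, whose close copies in the genome its probe may not separate, read 4507 and 2434, a difference of -1.20. Gsta4, which handles products of lipid peroxidation, was dim, at 67.7 and 64.6, a difference of -0.38.

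Among the transferase members, only the theta-class Gstt1 and Gstt2 had a higher signal on the 5/6Nx array. Gstt1 (chromosome 10, 75246560 to 75246619, mm9) gave 22.8 for sham, close to the dimmest probes that counted as above background, and 1728 for 5/6Nx, a difference of 5.94. It has 1 probe. With the normexp correction, which raises dim signals, the difference was 4.04, so the size of the fold depends on the background and its direction did not. Gstt2, a neighbour of Gstt1 on the chromosome, read 203 and 610, a difference of 1.28, and its other probe differed by 1.71. Both Gstt2 probes were therefore past 2-fold on the same side as Gstt1. Gstt3, a theta-class gene that is not a member, read 541 and 919, a difference of 0.46 and under 2-fold.

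**Figure D3:**
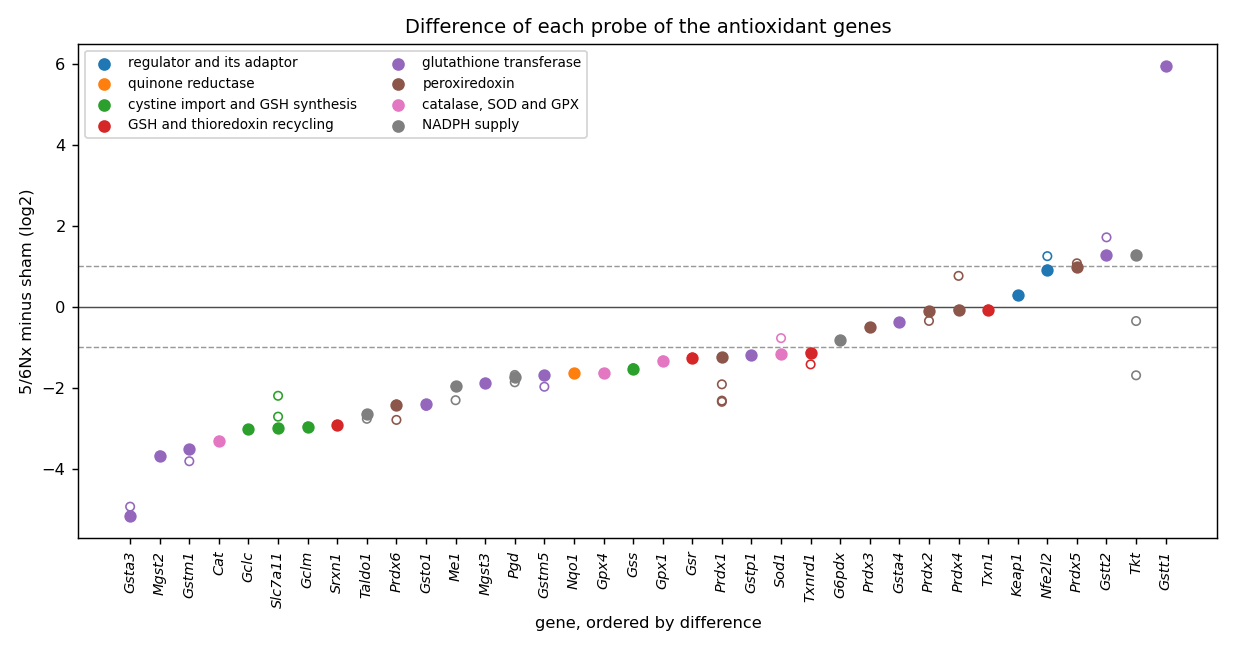
Difference between the arrays (5/6Nx minus sham, log2) for every measured probe of the 36 measured genes, with genes in order of their difference, the brightest probe filled, the other probes open and colours for the role. Dashed lines mark 2-fold. Gsta3 lies lowest at -5.16 and Gstt1 highest at 5.94, and the open symbols of Tkt lie below 0 while its filled symbol lies at 1.29.

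The peroxiredoxins, which reduce peroxides through a reactive cysteine, did not move as a family. By 2-fold or more 2 of 6 genes were lower and none higher, beside 11% and 12.3% of all genes. In so few genes, none higher is near that share. The median of -0.31 turned to 0.12 with spike-in scaling. That scaling moved the median of all genes likewise, from -0.12 to 0.31. Prdx6, a peroxiredoxin that is reduced by glutathione, read 117641 in the sham cells and 27293 in the 5/6Nx cells, a difference of -2.42, and -2.79 on its other probe. Prdx1, an abundant cytosolic member, read 193406 and 101005, a difference of -1.25, while its 3 other probes ran from -2.35 to -1.92, so that their mean over all 4 probes was -1.96. Prdx5, found in mitochondria, peroxisomes and cytosol, had the other sign, with 55047 and 133743 for a difference of 0.97 and 1.07 on its second probe. It lay just short of 2-fold here and just past it in 5 of 10 alternatives. Prdx2 differed by -0.11, the mitochondrial Prdx3 by -0.50 and Prdx4, of the endoplasmic reticulum, by -0.07, with its other probe at 0.76.

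Catalase, superoxide dismutase and glutathione peroxidase genes measured on both arrays, 4 in all, were each lower by 2-fold or more, beside 11% of all genes. Their median was -1.48. Cat (chromosome 2, 103294660 to 103294719, mm9), the catalase of peroxisomes, read 7871 in the sham cells and 984 in the 5/6Nx cells, a difference of -3.31. Gpx4, which reduces lipid hydroperoxides and protects cells from ferroptosis, read 15929 and 6354, a difference of -1.63. Gpx1, the abundant cytosolic glutathione peroxidase, read 37245 and 18380, a difference of -1.33. Sod1, the copper-zinc dismutase of the cytosol, read 23633 and 13053, a difference of -1.16, and -0.77 on a probe for a transcript that the files describe as having an apparent retained intron. The brighter Sod1 probe shares a run of 25 bases with a probe of an unnamed transcript. Catalase was thus 9.90-fold lower, and the other 3 between 2.24-fold and 3.10-fold.

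Both members that act outside the cell were above background on 1 array only, on opposite sides. Gpx3, the secreted glutathione peroxidase, read 125 for sham and 5.43, not well above background, for 5/6Nx, where it was at least 11.3-fold lower. Sod3, the extracellular dismutase, read 2.95, not well above background, for sham and 423 for 5/6Nx, where it was at least 26.7-fold higher. These bounds set the bright value against the lowest signal that counted as above background on the dim array, 12.8 for sham and 13.7 for 5/6Nx before scaling.

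Of the genes grouped under the supply of NADPH, the electron donor of both reductases, 3 of 5 were at least 2-fold lower and 1 higher. Of all genes 11% were lower and 12.3% higher. The group takes in Taldo1 and Tkt, of the non-oxidative pentose phosphate branch, which does not itself make NADPH. Pgd, the phosphogluconate dehydrogenase of the oxidative pentose phosphate branch, read 39216 in the sham cells and 14476 in the 5/6Nx cells, a difference of -1.75, and its 3 probes ran from -1.86 to -1.68. G6pdx, which opens that branch, read 19525 and 13712, a difference of -0.82 and under 2-fold. Taldo1, the transaldolase of the non-oxidative branch, read 128191 and 25146, a difference of -2.66, and -2.77 on its second probe. Me1, the cytosolic malic enzyme, read 2553 and 810, a difference of -1.96, and -2.31 on its second probe. Tkt, the transketolase that works beside Taldo1, went the other way on its brightest probe, with 3287 and 9922 for a difference of 1.29, but its other 2 probes, both dim, differed by -1.69 and -0.35. The mean over the 3 Tkt probes was -0.25, so the direction given for Tkt rests on 1 probe.

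A list of 84 other genes of the same pathway, without the members, was measured in the same way. It too was chosen with earlier results of these data known. By 2-fold or more 26 of 76 measured genes (34.2%) were lower and 6 (7.89%) higher, with a median of -0.69, against the 11% and 12.3% of all genes. With spike-in scaling 16 were lower and 10 higher, with a median of -0.26. All genes then had 5.47% lower, 21.2% higher and a median of 0.31. None of 12 partners and competitors of Nrf2, such as small Maf proteins, was 2-fold apart. With median scaling 2 were lower, Bach1 and Cul3. With spike-in scaling 1 was higher and the median of the 12 turned from -0.40 to 0.03, still below that of all genes. Bach1, the repressor that competes with Nrf2 for its sites, read 2649 in the sham cells and 1724 in the 5/6Nx cells, a difference of -0.93. All 12 lay between -0.93 and 0.66.

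Among 17 other Nrf2 targets 10 were at least 2-fold lower and none higher, beside 11% and 12.3% of all genes. With spike-in scaling 6 were lower and 1 higher, beside 5.47% and 21.2% of all genes. Abcc1, counted as lower at -1.73, differed by 0.28 on its other probe. Akr1b8, an aldo-keto reductase, differed by -4.31, Cbr3, a carbonyl reductase, by -3.80, and Ugt1a6a, a glucuronosyltransferase, by -2.14. Hmox1, the haem oxygenase that both Nrf2 and Bach1 control, read 30543 and 45438, a difference of 0.26, and its dimmer probe differed by -2.82. The direction for Hmox1 therefore depends on the probe.

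Of 22 other measured glutathione enzymes 8 were lower and 3 higher, which spike-in scaling turned to 5 and 3. Of all genes 11% were lower and 12.3% higher, or 5.47% and 21.2% with spike-in scaling. The count of higher enzymes was thus near the share of all genes in the main setting. The mu-class genes Gstm2, Gstm3, Gstm4 and Gstm6 differed by -4.37, -3.56, -3.83 and -3.67, close to Gstm1. Whether their probes read a related mu-class transcript, such as that of Gstm1, was not tested. Oplah, which recycles oxoproline to glutamate, differed by -4.02, and Mgst1, a microsomal transferase, by -1.42. Among the higher genes Ggct, the gamma-glutamylcyclotransferase, read 158 in the sham cells and 1909 in the 5/6Nx cells, a difference of 3.29, and Chac1, which cleaves glutathione directly, read 129 and 1526, a difference of 3.26. Its relative Chac2 differed by 0.38, under 2-fold. Glrx, the cytosolic glutaredoxin, differed by 2.28.

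In the remaining roles, Sod2, the mitochondrial dismutase, read 1623 in the sham cells and 19580 in the 5/6Nx cells, a difference of 3.28, opposite in sign to Sod1. Gpx8, a peroxidase of the endoplasmic reticulum, was above background on the 5/6Nx array only, and at least 5.46-fold higher there. Sesn1, Sesn3 and Txnrd3, 2 sestrins and a thioredoxin reductase, differed by -2.16, 3.89 and -2.07, and the mitochondrial thioredoxin Txn2 by -0.26. Among sources of NADPH, the isocitrate dehydrogenase Idh1 differed by -3.80, H6pd, of the endoplasmic reticulum, by -2.44, and Aldh1l1, of folate metabolism, by 2.10. Aldh1l1 was dim on the sham array, at 23.9.

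**Figure D4:**
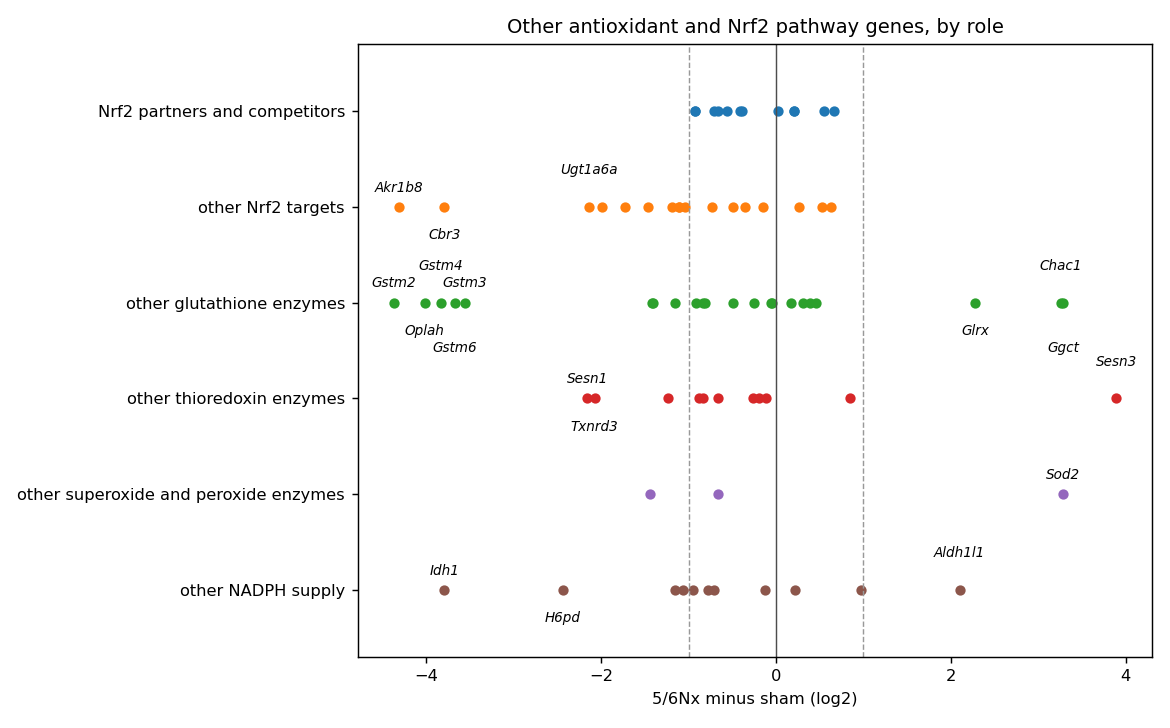
Difference between the arrays (5/6Nx minus sham, log2) for 76 other measured genes of the antioxidant and Nrf2 pathway, 1 point a gene, in rows by role, with names at 4-fold or more. Dashed lines mark 2-fold. Points of Nrf2 partners stay within the lines, while targets and glutathione enzymes reach from -4.37 to 3.29.

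The arrays also differed in markers of other cell types. The share of non-control spots above background was 63% for sham and 67% for 5/6Nx. All 10 monocyte markers were well above background on both arrays, with 3 at least 2-fold higher, 1 lower and a median of -0.11. Itgam, which encodes CD11b, differed by -0.35, and by -1.18 on its other probe. Ly6c1 and Ly6c2, paralogs their probes may not separate, differed by 1.98 each. Other monocyte markers went both ways, with the chemokine receptors Cx3cr1 at -4.24 and Ccr2 at -0.89 and the Fc receptor Fcgr1 at 2.63. The summed signal of the list, in multiples of the 75th percentile of the array, was 1276 for sham and 1592 for 5/6Nx.

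Markers of lymphocytes gave mostly stronger signals for 5/6Nx. Of 10 T cell markers 8 were above background for sham and 10 for 5/6Nx, with 7 of the 8 at least 2-fold higher and sums of 3.09 and 60.5. All 8 NK cell markers were above background for 5/6Nx and 4 for sham, with sums of 0.76 and 74.8. Of 5 B cell markers measured on both arrays 2 were higher, 3 more were above background for 5/6Nx only, and the sums were 1.81 and 4.09.

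In the myeloid and platelet lists markers moved in both directions, and a sum follows the brightest probes. The neutrophil sums were 21.83 and 21.97, while of 4 measured markers 3 were at least 2-fold higher, Lcn2 by 7.31, Ly6g by 4.53 and Camp by 2.18 in log2 units, and Mmp8 differed by -3.97. The red pulp macrophage sums were 171 and 185, and of 6 measured markers 2 were higher and 3 lower, from Spic at 5.53 to Trf at -4.08. The brightest measured marker of this list on both arrays was Hmox1, also counted above as an Nrf2 target. Its direction depends on the probe. The conventional dendritic cell sums were 51.1 and 7.24, with Clec10a at -4.12, but Batf3 differed by 4.28, Itgae by 4.43 and Flt3 by 0.72, 2 more markers were above background for 5/6Nx only and 1 for sham only. The platelet sums were 409 and 31.1, with Pf4 at -4.30, Ppbp at -2.62 and Treml1 at -3.80, whereas Clec1b differed by 3.59, Gp9 and Gp1bb lay under 2-fold, and Itga2b and Gp6 were above background for 5/6Nx only. Red cells hold much catalase, Prdx2 and Gpx1. Among erythroid markers on the array, Hbb-b1, Alas2, Slc4a1 and Ahsp were not well above background on either array, Klf1 was above it on the sham array only, and Hba-a1 differed by 2.70. The part of these cell types in the differences of the antioxidant genes was not tested.

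Scaling and background correction changed the size of the group difference. The 75th percentiles used for scaling were intensities of 442 (sham) and 548 (5/6Nx). With spike-in controls as the scale, which moved the median of all genes from -0.12 to 0.31 and that of the members to -0.999, 18 members were at least 2-fold lower and 5 higher, against 5.47% and 21.2% of all genes. The lower share of the members that were apart went from 88.9% to 78.3%, and that of all genes from 47.1% to 20.5%. Gsr, Txnrd1, Gstp1, Prdx1, Sod1 and Gpx1 then lay under 2-fold. Of the 27 members at least 2-fold apart in either direction, beside 23.3% of all genes, 19 stayed past 2-fold on their side in every alternative that measured them. The other 8 were those 6, Nqo1 with normexp and Tkt with the mean over probes, where Sod1 also fell short of 2-fold. Every member was read by single spots, and the spread between repeated spots of other probes, an SD of 0.0377 for a difference in log2 units, leaves out labelling, sorting and the animals.

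**Figure D5:**
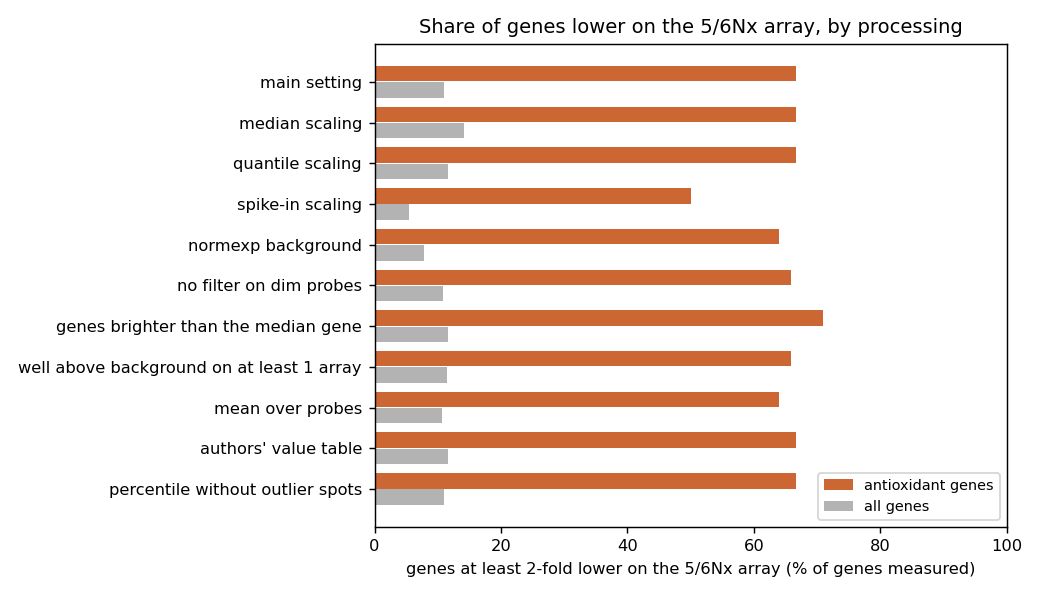
Share of genes that were lower on the 5/6Nx array by 2-fold or more, as a percentage of genes measured, for the antioxidant genes and for all genes, under the main setting and 10 alternatives. The share of the antioxidant genes runs from 50% with spike-in scaling to 71% among genes brighter than the median gene, and that of all genes from 5.47% to 14.2%.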

How the data were processed

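RNA of splenic monocytes was measured on 2 one-colour (Cy3) Agilent arrays, 1 per group. The deposited scanner output gives the linear intensity of each spot, from Agilent Feature Extraction version 10.7.1.1 per the file headers and 9.5.1.1 per the submitters' processing notes. Its processed intensity was background-subtracted and detrended within the array, with surrogates for low spots, per the file headers. The authors' deposited value table holds normalized intensity values, by a method not given in the sources used here. Probe positions are on mm9, per the file headers; exon and UTR annotation was not used here.

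From these, log2 was taken and the 75th percentile of each array, over 59305 spots other than controls, was subtracted. Before averaging per probe, 70 spots marked as outliers were dropped, and no spot was saturated. A probe counted as measured if both arrays put it well above background, and a gene stands at its brightest measured probe. All genes means the names found in the RefSeq table of GRCm38.p6. A gene was counted as apart at 2-fold. Bounds set the bright value against the higher of the dim probe's value and the lowest value above background. All members are named, with other pathway genes at 4-fold or more where both arrays measured them and Hmox1, Sod2, Mgst1, Txn2 and Bach1. Abcc1, Chac2, Cul3, Gstt3, Gpx7, Gpx8, Me3 and most named markers were chosen after their values were seen. Members and lists were chosen with earlier results of these data known. Steps were tested on simulated data. Python 3.11.15, R 4.3.3 and limma 3.58.1 (normexp, offset 50) were used. The number of arrays limits the precision.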

Additional observations from a re-analysis of the deposited data

How the results depend on the processing

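The members' median difference was negative in every alternative: -1.58 with median scaling, -1.36 with quantile scaling, -0.999 with spike-in scaling, -1.25 with normexp, -1.54 among genes brighter than the median gene, -1.58 with the mean over probes and -1.36 in the authors' value table, and -1.43 with the 2 members seen on 1 array at their bound, an alternative chosen after seeing the data. The members at least 2-fold higher numbered 5 with spike-in scaling and 1 among brighter genes, where fewer genes were counted. At a 1.5-fold threshold 25 were lower and 5 higher, and the share of all genes at that threshold was not counted. At a 4-fold threshold 11 were lower and 1 higher, beside 2.71% and 4.56% of all genes. With all names in the files as genes, also chosen after seeing the data, 9.69% of genes were lower. Tkt turned to -0.25 with the mean over its probes, which differ in sign. Percentiles over spots without an outlier flag changed no call. The signal over background limits Nqo1, Gsta4 and Gstt1, which were dim on at least 1 array. No paired analysis was possible because each group has 1 array.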
